A study of Oryctolagus cuniculus with 49 samples.

Results

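The genes described here are those of the TGF-beta and BMP signalling families that were measured in the rabbit iris and ciliary body. They were chosen by gene symbol alone: TGF-beta ligands and receptors (TGFB, TGFBR), bone morphogenetic proteins and growth differentiation factors (BMP, GDF), activin subunits and receptors (INHB, ACVR), SMAD and SMURF genes, latent TGF-beta binding proteins (LTBP), the antagonist families FST, GREM, NOG and CHRD, and ID1 to ID4. The rule found 52 genes, measured through 63 transcripts, among 12948 genes and 16725 transcripts. RefSeq (assembly mOryCun1.1) names 72 rabbit genes that fit the rule, and the symbols of the other 20 are not among the transcripts analysed here. Of those 20, BMP8B, LTBP3 and LTBP4 were measured under locus numbers, outside the symbol rule.

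TGF-beta, activin and BMP ligands are secreted dimers that bind pairs of type I and type II serine/threonine kinase receptors. TGF-betas and activins signal mainly through SMAD2 and SMAD3, BMPs mainly through SMAD1, SMAD5 and SMAD9, and both branches share SMAD4. TGF-beta is stored in the matrix as a latent complex with LTBP proteins, while noggin, gremlins, chordin-like proteins and follistatin bind ligands outside the cell. TGFB2 is the main TGF-beta of the aqueous humour, and the pathway is known in the eye for fibrosis and for restraint of immune cells.

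The animals were New Zealand white rabbits. Operated eyes had undergone removal of the lens with insertion of an artificial intraocular lens, and the series asks how the front of the eye responds with age. Groups were unoperated 5-week eyes (n = 7), operated 5-week eyes (n = 3), operated 6.5-week eyes (n = 3), unoperated 6-month eyes (n = 7) and operated 6-month eyes (n = 6), each library from a different rabbit. No genotype or further agent is named, and how long after surgery the eyes were taken is not stated in the labels. The labels hold no unoperated 6.5-week group, so surgery and growth cannot be told apart in those 3 eyes.

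Values are FPKM, fragment counts scaled to transcript length and to the mapped total of the library. They summed to 412936 to 504202 per library over the listed transcripts, and read depth is unknown. Of 14 ciliary and pigment epithelium markers 11 fell and 1 rose with surgery at 6 months and 10 fell and 1 rose in juveniles, of 8 macrophage markers 8 rose at both ages, and of 8 endothelial markers 6 rose and 1 fell at both ages. Of 8 iris smooth muscle markers 6 fell at 6 months and 5 fell and 1 rose in juveniles. Of 7 markers of dividing cells 7 rose at 6 months and 6 in juveniles. Beside these counts, 16% of all genes rose and 30.1% fell at 6 months, and 16.5% rose and 20.8% fell in juveniles. Only 3 of 7 neutrophil markers are listed, and all 3 were higher in operated eyes at both ages. This is no test, since a transcript is listed only above 1 FPKM in every library of a group. Their sum was as low as 0.86 FPKM in unoperated 5-week and 0.55 in unoperated 6-month eyes, so operated eyes alone listed them. For the other markers, the groups behind the listing were not worked out. The summed level of the epithelial markers was 3271 to 3934 FPKM in unoperated and 2320 to 2833 in operated eyes at 6 months, and 3884 to 4640 against 2355 to 3025 in juveniles. The macrophage sum was 80.3 to 202 against 252 to 675 at 6 months, and 57.3 to 134 against 290 to 643 in juveniles. In whole tissue, fewer cells of a type and less RNA per cell cannot be told apart, and the part of this shift in the changes of the members was not tested. Lens crystallin CRYAA exceeded 1000 FPKM in 8 libraries, 4 of them unoperated 5-week eyes. Operated 6.5-week replicate 3 had the lowest value of all 26 libraries for 11 of 52 members and 14.13% of all genes. Operated 6-month replicates 6 and 4 had the lowest value for 1 and 2 members and for 11.82% and 10.01% of all genes.

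Surgery changed 28 of 52 members at each age. Changes were tested with limma on log2(FPKM + 0.5), and genes with a Benjamini-Hochberg adjusted p under 0.05 over all genes are said to have risen or fallen. At 6 months 12 members rose and 16 fell (53.8%), where 46.1% of all genes changed, 16% rising and 30.1% falling. In juveniles, taken as the mean of the operated 5-week and 6.5-week groups against unoperated 5-week eyes, 12 rose and 16 fell, where 37.3% of all genes changed, 16.5% rising and 20.8% falling. The members' median log2 change was -0.04 at 6 months and -0.06 in juveniles, beside -0.11 and -0.06 over all genes. Operated and unoperated libraries did not overlap for 10 higher and 11 lower members at 6 months (8.15% and 12.8% of all genes) and for 7 and 6 in juveniles (7.83% and 7.87%). After scaling every library to the same FPKM total (equal-sum scaling) the split was 12 higher and 24 lower at 6 months, where 11.1% and 47.3% of all genes were called, and 7 higher and 22 lower in juveniles, where 11.9% and 36.1% were. Median-ratio scaling gave 15 higher and 12 lower at 6 months, beside 21.5% and 20.2% of all genes. Equal-sum scaling moved the median of all genes at 6 months from -0.11 to -0.24.

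The same direction was called at both ages for 21 members. INHBA, INHBB, TGFB1, TGFB3, CHRDL2, ACVR1B, ACVRL1, ID1 and ID4 were called higher at both ages (17.3% of members, beside 11.9% of all genes). At both ages 12 members were called lower (23.1%, beside 16.6%), among them TGFB2, BMP2, BMP3, GDF10, GDF11, LTBP1, FSTL4, BMPR1A, TGFBR3, SMAD9 and ID2. None was called in opposite directions (all genes 0.0618% and 0.0386%), and 17 members passed at neither age. A transcript is listed only where it exceeds 1 FPKM in every library of at least 1 of 4 groups, the operated juveniles counting as 1 group. CHRDL2 and INHBB met this in operated eyes alone, so they had to be high there, and GDF10 and NOG met it in unoperated 5-week eyes alone. These 4 are in the counts above, but their differences between groups that decided the listing and their controls are given below with no test. Over the other 48 members, 10 rose and 15 fell at each age.

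**Figure D1:**
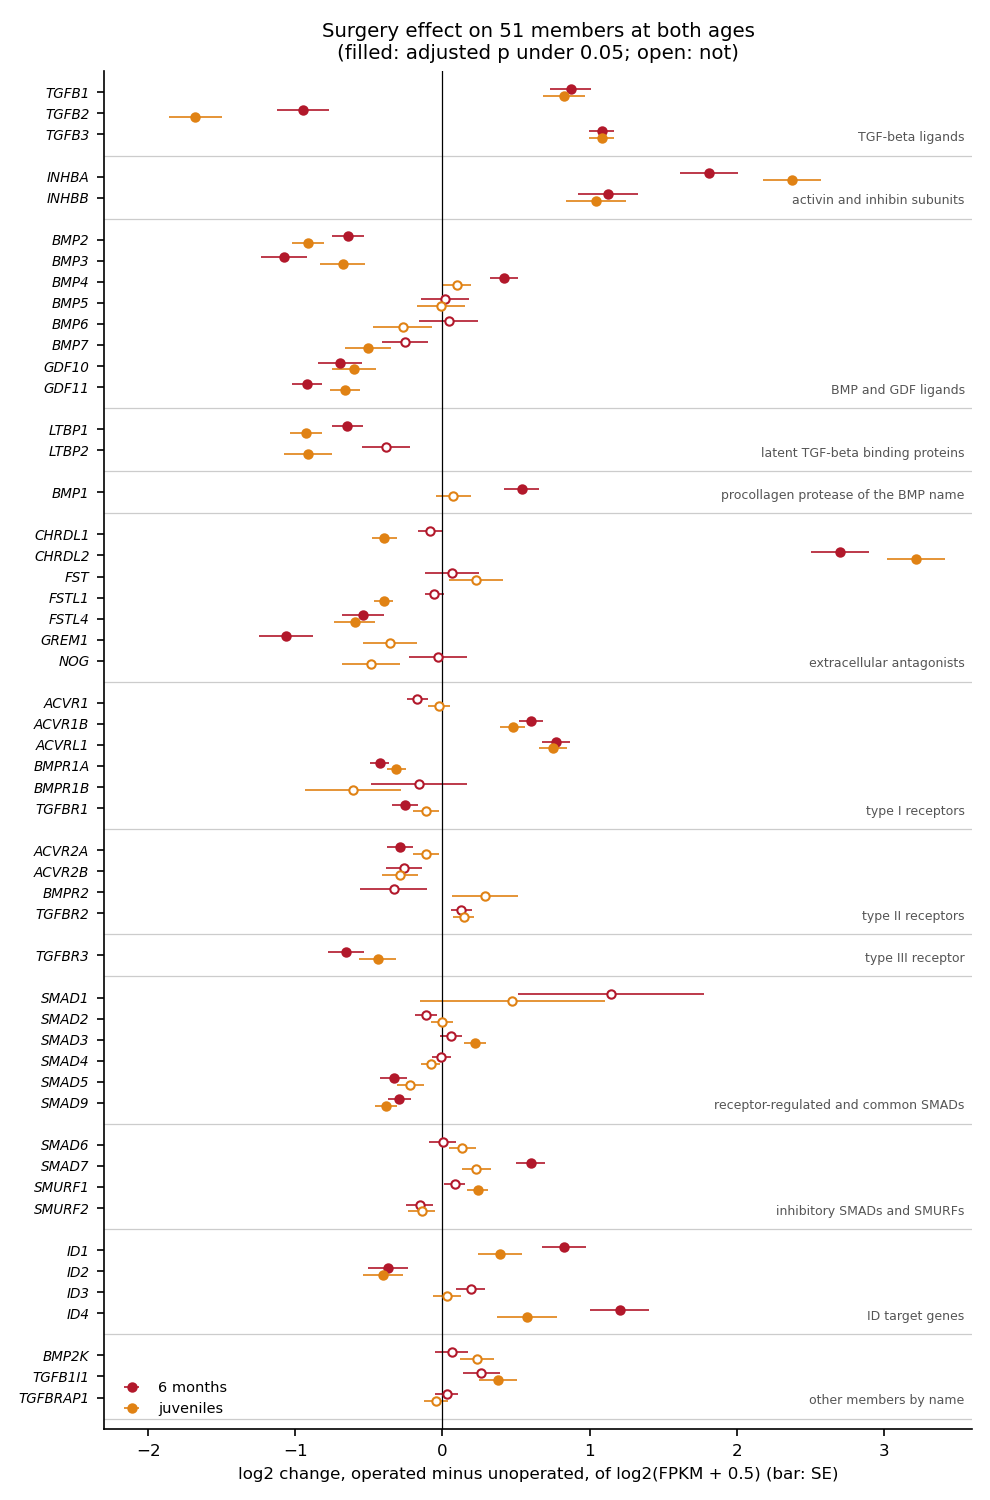
Surgery effect on 51 members by role, as log2 change of log2(FPKM + 0.5) (x axis) with its SE, at 6 months (red) and in juveniles (orange). Filled points had an adjusted p under 0.05, which is no test for CHRDL2 and INHBB nor, in juveniles, for GDF10. CHRDL2 and INHBA lie farthest to the right at both ages and juvenile TGFB2 farthest to the left, at -1.68.

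All 3 TGF-beta ligands changed with surgery, and they moved in opposite directions: TGFB2 fell while TGFB1 and TGFB3 rose. TGFB2 stood at 220 FPKM in the lowest, 239 in the median and 253 in the highest unoperated 6-month library, and at 89.2, 117 and 185 in the operated ones. Unoperated 5-week libraries ranged from 256 through a median of 283 to 313 FPKM. The operated 5-week libraries held 166, 122 and 92.9 FPKM, and the operated 6.5-week libraries 73.9, 93.9 and 34.4. Every operated eye was thus below every unoperated eye of its comparison, and 6.5-week replicate 3 was the lowest of all. The log2 change was -0.95 ± 0.18 (SE) at 6 months (limma adjusted p = 0.000133) and -1.68 ± 0.18 in juveniles (limma adjusted p = 7.28e-08). Without that library the juvenile change was -1.47 ± 0.15. The table lists 2 TGFB2 transcripts, and the mean of the more abundant went from 201 to 110 FPKM at 6 months, that of the other from 37.6 to 17.7.

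TGFB1, the isoform of platelets, immune cells and endothelium, had a lowest, median and highest value of 21.7, 26.5 and 29.8 FPKM in unoperated and 36.1, 43.0 and 78.6 in operated 6-month eyes. Unoperated 5-week eyes held 20.6, 22.4 and 25.4 FPKM, operated 5-week eyes 45.7, 32.5 and 48.0, and operated 6.5-week eyes 38.2, 35.3 and 43.2. No operated value reached down to an unoperated one at either age, and operated 6-month replicates 4 and 6 were the highest. The rise was 1.83-fold at 6 months (log2 0.87 ± 0.14 SE, limma adjusted p = 2.22e-05) and 1.77-fold in juveniles (log2 0.83 ± 0.14, limma adjusted p = 5.03e-05). A pair of locus-numbered rows are also described as TGFB1, at means of 1.84 FPKM (LOC100353067) and 2.01 FPKM (LOC100352301) in unoperated 6-month eyes, and reads may be split among these copies. LOC100353067 rose at 6 months (log2 0.72 ± 0.23, limma adjusted p = 0.0145) but did not pass in juveniles (0.58 ± 0.23, limma adjusted p = 0.0515). LOC100352301 passed at neither age (log2 0.09 ± 0.16 and 0.17 ± 0.16, limma adjusted p = 0.649 and 0.429).

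TGFB3, an isoform known from palate and wound repair, rose at both ages. It lay at 12.3, 14.98 and 18.0 FPKM (lowest, median, highest) in unoperated and 27.2, 31.6 and 38.8 in operated 6-month eyes. In unoperated 5-week eyes it was 12.4, 14.5 and 15.3 FPKM, against 31.4, 27.0 and 24.8 in operated 5-week and 31.6, 34.3 and 36.5 in operated 6.5-week eyes. Groups did not overlap at either age, and the log2 change was 1.08 ± 0.09 at both (limma adjusted p = 4.01e-10 and 5.02e-10).

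The share of each isoform is given as a description, with no test. FPKM is corrected for length, which allows the isoforms to be set beside each other. The locus-numbered rows described as TGFB1 are left out of the shares and the sum, so the TGFB2 share may be overstated. TGFB2 made up 85.2% ± 1.36 (SD, n = 7) of the 3 isoforms in unoperated and 60.1% ± 9.22 (n = 6) in operated 6-month eyes. It was 88.5% ± 1.08 (n = 7) in unoperated 5-week, 63.9% ± 6.81 (n = 3) in operated 5-week and 46.3% ± 14.4 (n = 3) in operated 6.5-week eyes. The lowest share, 30.1%, was that of 6.5-week replicate 3. The summed level of the isoforms was 280 ± 10.1 FPKM in unoperated and 211 ± 40.3 in operated 6-month eyes, and 319 ± 19.3 against 169 ± 43.4 (n = 6) in juveniles.

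**Figure D2:**
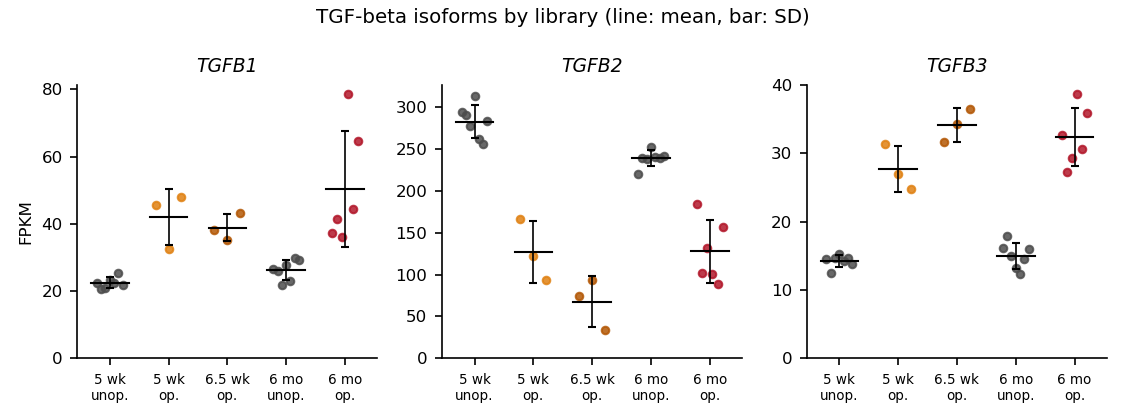
FPKM of TGFB1, TGFB2 and TGFB3 (y axes, from 0) in each library of the 5 groups (x axis), with the group mean (line) and SD (bar). TGFB2 is lower and TGFB1 and TGFB3 are higher in all operated eyes than in any unoperated eye of the same comparison.

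Of the LTBP family, LTBP1 fell at both ages and LTBP2 in juveniles. LTBP1, which links latent TGF-beta to fibrillin fibres, had a lowest, median and highest value of 158, 170 and 194 FPKM in unoperated and 79.0, 119 and 156 in operated 6-month eyes. It was 196, 209 and 237 FPKM in unoperated 5-week eyes, 130, 128 and 123 in operated 5-week and 92.3, 103 and 96.4 in operated 6.5-week eyes. Again no operated value overlapped an unoperated one, with a log2 change of -0.65 ± 0.11 at 6 months (limma adjusted p = 2.68e-05) and -0.93 ± 0.11 in juveniles (limma adjusted p = 2.24e-07).

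LTBP2, a fibrillin-binding relative needed for the zonular fibres that hold the lens, fell in juveniles (log2 -0.91 ± 0.16, limma adjusted p = 0.000105). Its unoperated 5-week values were 93.2, 111 and 132 FPKM (lowest, median, highest), and operated 5-week replicate 1, at 97.1, was the only operated juvenile inside that range. At 6 months the change did not pass (log2 -0.38 ± 0.16, limma adjusted p = 0.0588). Unoperated eyes there lay between 62.1 and 70.8 FPKM and operated eyes between 31.8 and 83.8. It passed without operated replicate 1 or 6 (limma adjusted p = 0.00703 and 0.0376), without the CRYAA-rich libraries (0.00831) and with equal-sum scaling (0.00887). LTBP3 and LTBP4, listed under locus numbers outside the symbol rule, had 6-month log2 changes of -0.22 ± 0.09 (LOC103347571) and -0.48 ± 0.13 (LOC100351642), both called lower. In juveniles neither was called (log2 -0.13 ± 0.09 and -0.20 ± 0.13, limma adjusted p = 0.253 and 0.233).

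Of the activin beta subunits, INHBA rose at both ages. INHBA, which forms activin A, had a lowest, median and highest value of 1.90, 2.71 and 3.36 FPKM in unoperated and 9.09, 10.5 and 13.1 in operated 6-month eyes. Unoperated 5-week eyes held 0.88, 1.60 and 3.18 FPKM, operated 5-week eyes 7.11, 14.9 and 8.68, and operated 6.5-week eyes 13.9, 10.2 and 9.23. No operated eye came down to an unoperated level. The change was log2 1.81 ± 0.20 at 6 months (limma adjusted p = 8.15e-08) and 2.37 ± 0.20 in juveniles (limma adjusted p = 1.24e-09), or 3.51-fold and 5.18-fold. INHBB, the subunit of activin B, was 0.50, 0.80 and 1.12 FPKM in unoperated and 1.39, 1.88 and 4.75 in operated 6-month eyes. Its unoperated 5-week values were 0.65, 0.74 and 1.30 FPKM, beside 3.44, 2.77 and 2.13 in operated 5-week and 1.36, 1.83 and 2.74 in operated 6.5-week eyes. The log2 differences were 1.13 and 1.05, given with no test because INHBB is listed only through its operated values.

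Follistatin (FST), which binds activins and keeps them from their receptors, did not pass at either age. It ranged from 3.32 to 5.63 FPKM in unoperated and 2.97 to 6.81 in operated 6-month eyes, and from 2.56 to 5.57 against 3.29 to 5.92 in juveniles. The juvenile log2 change was 0.23, with a 95% confidence interval of -0.15 to 0.60, which lies below that of INHBA (1.97 to 2.78). INHBA was 0.662 ± 0.109 times the FPKM of FST in unoperated and 2.67 ± 1.08 times in operated 6-month eyes, and 0.530 ± 0.266 against 2.74 ± 0.959 times in juveniles (SD).

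**Figure D3:**
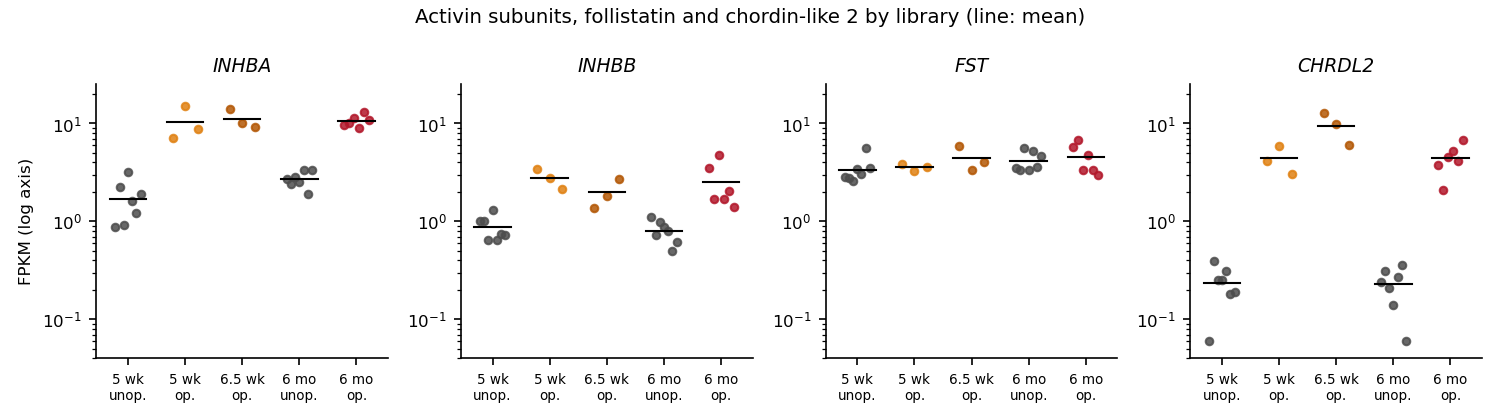
FPKM on a shared log axis (y) of the activin subunits INHBA and INHBB, follistatin (FST) and chordin-like 2 (CHRDL2) in each library of the 5 groups (x axis), with the group mean (line). INHBA separates operated from unoperated eyes at both ages and FST overlaps in all groups; INHBB and CHRDL2 are listed only through their operated values.

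Of 8 BMP and GDF ligands 1 rose and 4 fell at 6 months, and 5 fell in juveniles, GDF10 included. Of all genes 16% rose and 30.1% fell at 6 months, and 16.5% rose and 20.8% fell in juveniles. BMP3, an atypical BMP that opposes other BMPs, was 30.0, 34.5 and 49.0 FPKM (lowest, median, highest) in unoperated and 13.9, 17.0 and 23.2 in operated 6-month eyes. In juveniles the unoperated values were 22.4, 30.2 and 37.9 FPKM, against 13.7, 20.8 and 19.9 in operated 5-week and 25.4, 18.7 and 13.6 in operated 6.5-week eyes. It overlapped in juveniles only through 6.5-week replicate 1, and fell by 1.08 ± 0.15 on the log2 scale at 6 months (limma adjusted p = 4.97e-06) and by 0.68 ± 0.15 in juveniles (limma adjusted p = 0.0012).

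BMP2, a ligand of bone and heart formation, was 27.9, 30.9 and 37.6 FPKM (lowest, median, highest) in unoperated and 15.3, 20.3 and 26.3 in operated 6-month eyes. Unoperated 5-week eyes held 28.6, 39.2 and 41.2 FPKM, operated 5-week eyes 20.0, 20.6 and 18.8, and operated 6.5-week eyes 17.4, 16.5 and 23.3. Groups were apart at both ages, at log2 -0.64 ± 0.11 (limma adjusted p = 3.94e-05) and -0.91 ± 0.11 (limma adjusted p = 4.09e-07).

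GDF11, a relative of myostatin with a part in body patterning and retinal development, was 34.2, 37.8 and 43.8 FPKM in unoperated and 15.2, 19.9 and 29.2 in operated 6-month eyes. It was 29.1, 31.3 and 32.4 FPKM in unoperated 5-week eyes, beside 19.1, 20.4 and 17.0 in operated 5-week and 20.7, 19.2 and 20.9 in operated 6.5-week eyes. It fell by 0.92 ± 0.10 at 6 months (limma adjusted p = 1.21e-07) and by 0.66 ± 0.10 in juveniles (limma adjusted p = 1.67e-05), with no overlap. GDF10, also called BMP3B, lay near the 1 FPKM limit of the table, at 1.44 ± 0.343 FPKM in unoperated and 0.698 ± 0.241 in operated 6-month eyes (log2 -0.69 ± 0.15). In juveniles it was 1.71 ± 0.341 and 0.962 ± 0.248 FPKM, with no test, since it is listed only through the unoperated 5-week eyes.

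BMP4, a ligand of eye and lens development, was the BMP that rose. Its 6-month values were 21.0, 26.01 and 33.4 FPKM (lowest, median, highest) in unoperated and 29.5, 35.7 and 39.0 in operated eyes, overlapping through unoperated replicate 5 (log2 0.42 ± 0.10, limma adjusted p = 0.00104). In juveniles BMP4 was 21.7 ± 2.70 FPKM in unoperated and 23.3 ± 3.12 in operated eyes and did not pass. BMP7, needed for kidney and eye formation, fell in juveniles from 41.1 ± 4.91 to 29.2 ± 5.78 FPKM (log2 -0.50 ± 0.16, limma adjusted p = 0.014), a call lost with either operated juvenile group alone, without the 3 late-numbered rabbits and without the CRYAA-rich libraries (adjusted p up to 0.0753). At 6 months its log2 change was -0.25 ± 0.16, and -0.40 (adjusted p = 0.0246) without operated replicate 6. Reads of BMP7 may be shared with rows described as BMP7 under locus numbers, which had juvenile log2 changes of -0.49 ± 0.13 (LOC100008826) and -0.47 ± 0.10 (LOC103347033). At 6 months LOC103347033 was also called lower (log2 -0.36 ± 0.10, limma adjusted p = 0.00564). LOC100008826 was not called there (log2 -0.27 ± 0.13, limma adjusted p = 0.0883). BMP5 and BMP6, at means of 5.71 and 2.21 FPKM in unoperated 6-month eyes, passed at neither age.

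The name of BMP1 is historical: it is a protease that processes procollagens and chordin, not a ligand. It rose at 6 months, from 17.2, 22.9 and 25.8 FPKM (lowest, median, highest) to 24.7, 31.0 and 41.4 (log2 0.54 ± 0.12, limma adjusted p = 0.00066). Operated replicate 6 was the only operated eye within the unoperated range. In juveniles it was 44.9 ± 3.51 FPKM without and 47.8 ± 9.09 with surgery.

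CHRDL2 encodes chordin-like 2, a secreted protein that binds BMPs. Unoperated eyes were near 0, with 0.06, 0.24 and 0.36 FPKM (lowest, median, highest) at 6 months and 0.06, 0.25 and 0.39 at 5 weeks. Operated 6-month eyes held 2.07, 4.33 and 6.84 FPKM, operated 5-week eyes 4.17, 5.95 and 3.08, and operated 6.5-week eyes 12.7, 9.91 and 5.96. On the log2(FPKM + 0.5) scale, which compresses such low values, the difference was 2.70 at 6 months and 3.22 in juveniles. Its listing required high operated values, so these are descriptions, with no test. Both listed transcripts were higher in operated 6-month eyes, at means of 2.605 and 1.82 FPKM against 0.0443 and 0.183.

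Of 8 extracellular antagonists 3 fell at 6 months and 4 in juveniles, beside 30.1% and 20.8% of all genes, and CHRDL2 was the one called higher. GREM1, a secreted inhibitor of BMP2 and BMP4, was 15.4, 19.6 and 26.1 FPKM (lowest, median, highest) in unoperated and 6.11, 9.47 and 14.7 in operated 6-month eyes, without overlap (log2 -1.06 ± 0.18, limma adjusted p = 5.39e-05). In juveniles it did not pass: unoperated eyes lay between 11.4 and 15.8 FPKM, operated 5-week eyes at 12.1, 14.7 and 10.8, and operated 6.5-week eyes at 6.98, 14.3 and 5.97 (log2 -0.36 ± 0.18, limma adjusted p = 0.132). It passed without 6.5-week replicate 2 (-0.54, adjusted p = 0.0136), with the 6.5-week eyes alone (-0.62, adjusted p = 0.0385) and after equal-sum scaling (adjusted p = 0.0384).

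FSTL1, a secreted glycoprotein of the follistatin-like group, was among the most abundant members. It fell in juveniles from 415, 452 and 519 FPKM (lowest, median, highest) to 375, 354 and 340 at 5 weeks and 349, 354 and 324 at 6.5 weeks (log2 -0.40 ± 0.07, limma adjusted p = 4.25e-05). At 6 months it was 339 ± 20.9 FPKM in unoperated and 328 ± 38.4 in operated eyes (log2 -0.05 ± 0.07, limma adjusted p = 0.533). Across the alternative fits this 6-month change ran from log2 -0.20 to 0.05, with limma adjusted p from 0.0148 to 0.955. CHRDL1 also fell in juveniles (62.9 ± 5.09 to 48.4 ± 9.65 FPKM, log2 -0.40 ± 0.08), and was 76.0 ± 3.29 and 72.0 ± 6.64 FPKM at 6 months. FSTL4 fell at both ages (log2 -0.54 ± 0.14 and -0.60 ± 0.14). With the operated 5-week eyes alone the juvenile calls of CHRDL1 and FSTL4 were lost (adjusted p = 0.0725 and 0.066). Noggin (NOG), the classical BMP antagonist, was 1.17 ± 0.384 and 1.13 ± 0.404 FPKM in unoperated and operated 6-month eyes and was not called there. In juveniles it was 2.21 ± 0.566 FPKM without and 1.47 ± 0.514 with surgery, given with no test because of how it is listed.

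Among the 6 type I receptors 2 rose at both ages, beside 16% of all genes rising at 6 months and 16.5% in juveniles. Another 2 fell at 6 months and 1 in juveniles, beside 30.1% and 20.8% of all genes. ACVRL1, the ALK1 receptor of endothelial cells for BMP9 and BMP10, had a lowest, median and highest value of 14.2, 15.2 and 17.8 FPKM in unoperated and 20.4, 26.1 and 36.0 in operated 6-month eyes. Unoperated 5-week eyes held 14.7 to 17.2 FPKM, operated 5-week eyes 23.4, 22.9 and 25.6, and operated 6.5-week eyes 32.5, 29.3 and 29.9. It rose by log2 0.77 ± 0.09 and 0.75 ± 0.09 (limma adjusted p = 4.3e-07 and 7.82e-07) with no overlap. Summed endothelial markers moved with it, from 137 to 178 FPKM in unoperated to 180 to 336 in operated 6-month eyes, and from 128 to 161 to 252 to 348 in juveniles, and their part in this rise was not tested. ACVR1B, the ALK4 activin receptor, rose from 5.29 ± 0.486 to 8.32 ± 1.09 FPKM at 6 months (log2 0.60 ± 0.08) and from 5.60 ± 0.258 to 8.03 ± 0.940 in juveniles (log2 0.48 ± 0.08), again without overlap.

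BMPR1A, the broad ALK3 receptor for BMP2 and BMP4, fell at both ages (37.2 ± 0.902 to 27.7 ± 2.84 FPKM at 6 months, log2 -0.43 ± 0.06, and log2 -0.31 ± 0.06 in juveniles). TGFBR1, the type I receptor for TGF-beta, fell slightly at 6 months (log2 -0.25 ± 0.09, limma adjusted p = 0.0213), which was lost when operated replicate 4 or 6 was left out (adjusted p = 0.067 and 0.0554) and with median-ratio or upper-quartile scaling (adjusted p up to 0.162). TGFBR2, the type II receptor that TGF-beta binds first, passed at neither age, at 55.4 ± 1.75 and 60.8 ± 5.32 FPKM at 6 months. Its juvenile log2 change of 0.14 ± 0.07 was 0.22 (adjusted p = 0.00511) without 6.5-week replicate 3. Betaglycan (TGFBR3), the co-receptor that presents TGFB2, fell by 0.65 ± 0.12 at 6 months (limma adjusted p = 0.000141) and by 0.44 ± 0.12 in juveniles (limma adjusted p = 0.00657). It was 69.7, 75.9 and 84.3 FPKM (lowest, median, highest) in unoperated and 35.9, 50.1 and 58.5 in operated 6-month eyes, which did not overlap. Its juvenile call was lost with the 5-week eyes alone and without the CRYAA-rich libraries (adjusted p = 0.0596 and 0.0676). ACVR2A fell at 6 months (log2 -0.29 ± 0.09, limma adjusted p = 0.0112), lost with median-ratio scaling and without the CRYAA-rich libraries (adjusted p up to 0.0825). BMPR1B is listed at 0 in operated 6.5-week replicate 3 and passed at neither age, nor did ACVR1, ACVR2B or BMPR2. BMPR2 lay at 17.2 to 19.7 FPKM in operated and 21.4 to 26.7 in unoperated 6-month eyes, without overlap, although the change was not called (limma adjusted p = 0.238). In juveniles BMPR2 passed without 6.5-week replicate 3 (log2 0.56 ± 0.18, adjusted p = 0.0205).

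Of the 6 receptor-regulated and common SMADs, SMAD5 and SMAD9 fell at 6 months by 0.33 ± 0.09 and 0.29 ± 0.08 (limma adjusted p = 0.00421 and 0.00302). SMAD9 also fell in juveniles by 0.38 ± 0.08 (limma adjusted p = 0.000322). SMAD3 rose by 0.22 ± 0.08 in juveniles (limma adjusted p = 0.0237), which was lost without unoperated 5-week replicate 6, operated 5-week replicate 1 or 6.5-week replicate 1 (adjusted p up to 0.0901) and in 5 other settings (adjusted p up to 0.289). The SMAD9 call at 6 months was lost with median-ratio scaling (adjusted p = 0.0516). SMAD2 and the shared SMAD4 passed at neither age. SMAD1 is listed at 0 in unoperated 6-month replicates 3 and 5 and operated 6-month replicate 3, beside 1.61 to 6.52 FPKM in the other unoperated and 4.99 to 12.2 in the other operated libraries, so no change is read from it.

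SMAD7, the inhibitory SMAD that TGF-beta itself induces, rose at 6 months from 4.40, 5.30 and 6.09 FPKM (lowest, median, highest) to 6.57, 8.53 and 9.24, without overlap (log2 0.60 ± 0.10, limma adjusted p = 2.88e-05). In juveniles the log2 change was 0.23 ± 0.10 (limma adjusted p = 0.0713). It passed there without unoperated 5-week replicate 2 or 4 or operated 5-week replicate 3 (adjusted p from 0.0234 to 0.044), without the late-numbered rabbits and with the 5-week eyes alone (adjusted p = 0.0429 and 0.0451). SMAD6, the inhibitor of the BMP branch, was 20.5 ± 2.15 FPKM in unoperated and 20.6 ± 2.49 in operated 6-month eyes. SMURF1, a ubiquitin ligase for SMADs and receptors, rose by 0.24 ± 0.07 in juveniles (limma adjusted p = 0.0109), lost with equal-sum scaling, without the CRYAA-rich libraries and with the 6.5-week eyes alone (adjusted p up to 0.214).

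The 4 ID genes, classical BMP-SMAD targets that block basic helix-loop-helix factors, did not move as a group. ID1 rose at 6 months from 104, 131 and 188 FPKM (lowest, median, highest) to 198, 255 and 303, without overlap (log2 0.83 ± 0.15, limma adjusted p = 0.000101). ID4 rose from 2.23, 4.33 and 4.75 FPKM to 6.83, 9.39 and 12.8, also without overlap (log2 1.21 ± 0.20, limma adjusted p = 3.46e-05). ID2 fell from 61.1 ± 6.27 to 47.5 ± 6.68 FPKM (log2 -0.37 ± 0.14, limma adjusted p = 0.0304), and ID3, the most abundant member in these eyes, was 415 ± 37.2 and 477 ± 72.6 FPKM (log2 0.19 ± 0.10, limma adjusted p = 0.11). Leaving out unoperated replicate 2, 4 or 6, or replicate 4 or 5 of the operated eyes, ended the ID2 call (adjusted p up to 0.0873) and in 3 other settings. ID3 passed without operated replicate 5 (0.25, adjusted p = 0.0345) and with median-ratio or upper-quartile scaling (adjusted p = 0.0223 and 0.0445).

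In juveniles ID1 and ID4 were higher by log2 0.39 ± 0.15 and 0.57 ± 0.20 and ID2 lower at -0.40 ± 0.14 (limma adjusted p = 0.044, 0.0273 and 0.0224), with overlapping groups. The unoperated 5-week range of ID4 was 4.41 to 8.71 FPKM, and the operated values were 10.3, 7.11 and 11.1 at 5 weeks and 11.4, 12.4 and 5.62 at 6.5 weeks. ID1 lost its juvenile call without unoperated 5-week replicate 1, 2, 3, 5 or 6, operated 5-week replicate 1 or 2 or 6.5-week replicate 1 or 3 (adjusted p up to 0.117). ID4 lost it without unoperated replicate 1, 3 or 7, operated 5-week replicate 1 or 3 or 6.5-week replicate 1 or 2 (adjusted p up to 0.0785). ID2 lost it without unoperated replicate 6 or 7, operated 5-week replicate 1 or 6.5-week replicate 1 or 2 (adjusted p up to 0.0764). In other settings ID1 lost the call in 3, ID2 in 4 and ID4 in 5 (adjusted p up to 0.368).

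**Figure D4:**
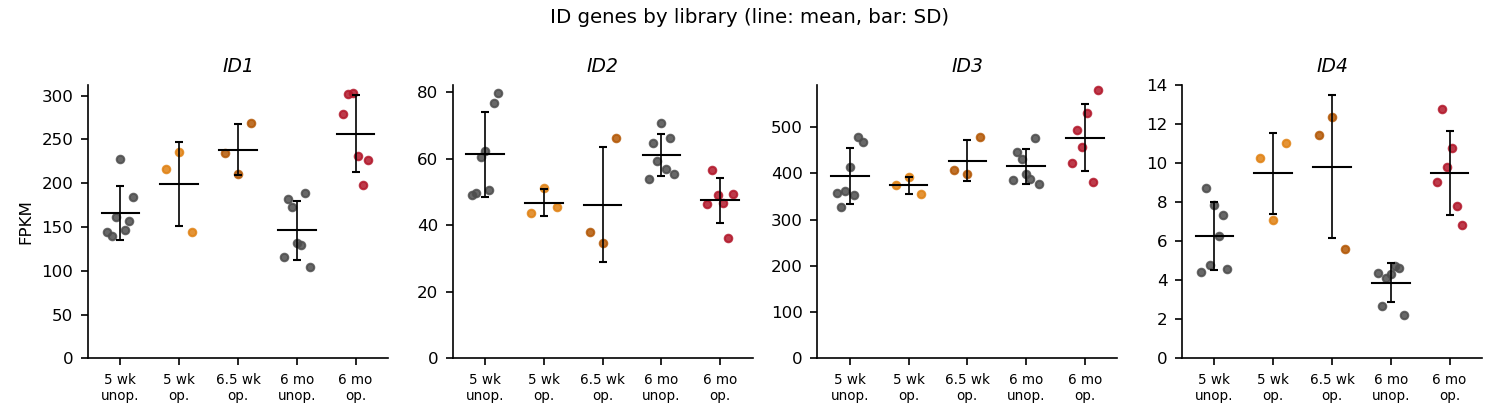
FPKM of ID1, ID2, ID3 and ID4 (y axes, from 0) in each library of the 5 groups (x axis), with mean (line) and SD (bar). At 6 months all operated eyes lie above all unoperated eyes for ID1 and ID4, not for ID2 or ID3.

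Among 3 members outside the other roles, TGFB1I1 (HIC-5, a focal adhesion protein) rose in juveniles by 0.38 ± 0.13 (limma adjusted p = 0.021). Operated 6.5-week eyes held 81.2, 67.2 and 79.2 FPKM and operated 5-week eyes 53.3, 52.4 and 47.0, against 39.2 to 53.2 without surgery. The call was lost with the 5-week eyes alone (adjusted p = 0.718) and in 3 other settings (adjusted p up to 0.143). BMP2K and TGFBRAP1 passed at neither age, but BMP2K passed in juveniles without 6.5-week replicate 3 (log2 0.39 ± 0.08, adjusted p = 0.000858).

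No member's surgery effect differed between the ages by limma, where 1.09% of all genes passed (0.734% higher and 0.355% lower); 9 of 52 members had an unadjusted p under 0.05, beside 12.9% of all genes. FSTL1 had the smallest adjusted p, 0.0812, for a difference of 0.35 ± 0.09 (6 months minus juveniles). Without operated 6-month replicate 5 it passed, at 0.39 (adjusted p = 0.0251). For TGFB2 the difference was 0.73 ± 0.25 with a 95% confidence interval of 0.21 to 1.25 (limma adjusted p = 0.19). With the operated 6.5-week eyes alone as the juvenile arm it passed, at 1.23 ± 0.28 (adjusted p = 0.0299). CHRDL1 passed without 6.5-week replicate 2 (0.41 ± 0.10, adjusted p = 0.0438) and was at 0.31 ± 0.12 with all libraries (limma adjusted p = 0.246). The differences of GREM1, ID4, INHBA and CHRDL2 were -0.70 ± 0.26, 0.63 ± 0.29, -0.56 ± 0.28 and -0.52 ± 0.28 (limma adjusted p from 0.233 to 0.457).

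Between the operated juveniles, no member passed at 6.5 against 5 weeks by limma, in 3 against 3 libraries, where 0.0154% of all genes passed (0.00772% in each direction); 8 members had an unadjusted p under 0.05, beside 10.3% of all genes. TGFB2 was lower at 6.5 weeks (log2 -0.99 ± 0.26, limma adjusted p = 0.182) and passed without 6.5-week replicate 2 (-1.29, adjusted p = 0.0292). CHRDL2 was higher there (log2 1.01 ± 0.29, limma adjusted p = 0.239). All 3 eyes at 6.5 weeks were above all 3 at 5 weeks for 7 members and below for 2, beside 6.77% and 4.56% of all genes.

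Age alone changed 15 of 52 members in unoperated eyes (28.8%), where 20.8% of all genes changed, 11.4% being higher and 9.46% lower at 6 months. These unoperated libraries are also the controls of the surgery comparisons. At 6 months 9 members were higher and 6 lower than at 5 weeks, and the median log2 change was 0.03, beside 0.04 over all genes. The ages did not overlap for 6 higher and 6 lower members, beside 4.26% and 3.99% of all genes. With equal-sum, median-ratio or upper-quartile scaling the split of higher to lower members was 6 to 8, 7 to 8 and 6 to 8. The share of all genes called higher and lower was 6.76% and 12.8%, 9.28% and 10.8%, and 7.87% and 12.3% in the same order. Without the libraries rich in CRYAA, which leaves 3 eyes at 5 weeks and 6 at 6 months, 5 calls remained. Those for BMP1, FSTL1, INHBA and LTBP2 were among them, and all 15 kept their direction. In that fit 279 of 12948 genes were called higher and 320 lower.

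BMP1 had the largest fall with age. It was 40.6, 44.5 and 52.1 FPKM (lowest, median, highest) at 5 weeks and 17.2, 22.9 and 25.8 at 6 months, a 2.03-fold lower level (log2 -1.02 ± 0.11, limma adjusted p = 9.56e-07). LTBP2 went from 93.2, 111 and 132 FPKM to 62.1, 68.2 and 70.8 (log2 -0.68 ± 0.16, limma adjusted p = 0.00332), and FSTL1 from 415, 452 and 519 to 312, 328 and 363 (log2 -0.44 ± 0.06, limma adjusted p = 3.98e-05). None of these ranges overlapped between the ages. FSTL4 and ID4 were lower by 0.58 and 0.63 on the log2 scale. NOG was at 2.21 ± 0.566 FPKM at 5 weeks and 1.17 ± 0.384 at 6 months, but it is listed only through the 5-week eyes, so this is no test; without the 4 such members, 9 were higher and 5 lower. ID4 lost its call without 5-week replicate 2 or 4 or 6-month replicate 2 or 7 (adjusted p up to 0.0584).

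Higher at 6 months were antagonists, receptors and ligands. GREM1 went from 13.4 ± 1.63 to 20.8 ± 4.32 FPKM (log2 0.61 ± 0.18). TGFBR3 went from 51.7 ± 5.82 to 76.9 ± 4.97 FPKM (log2 0.57 ± 0.12) and TGFBR2 from 42.9 ± 2.97 to 55.4 ± 1.75 (log2 0.37 ± 0.07). BMPR2, the type II receptor of BMPs, was spread from 6.54 through 11.7 to 20.3 FPKM at 5 weeks and lay at 21.4, 24.5 and 26.7 at 6 months (log2 1.02 ± 0.22, limma adjusted p = 0.00178). Without the CRYAA-rich libraries BMPR2 was no longer called (0.50, adjusted p = 0.285). INHBA was higher by 0.60 ± 0.19, lost without 5-week replicate 1 or 3 or 6-month replicate 5 or 7 (adjusted p up to 0.0635). CHRDL1, GDF11 and BMP4 were higher by 0.27, 0.29 and 0.26. BMP4 lost this call in 10 of 14 fits that left out 1 library, all but those without 5-week replicate 6 or 7 or 6-month replicate 1 or 4 (adjusted p up to 0.116). GDF11 lost it in 7, without 5-week replicate 1, 2, 4 or 7 or 6-month replicate 4, 5 or 6 (adjusted p up to 0.0764). TGFB2 differed with age by -0.24 ± 0.17 (limma adjusted p = 0.34), and passed in the fit on the 2 unoperated groups alone (adjusted p = 0.00242).

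**Figure D5:**
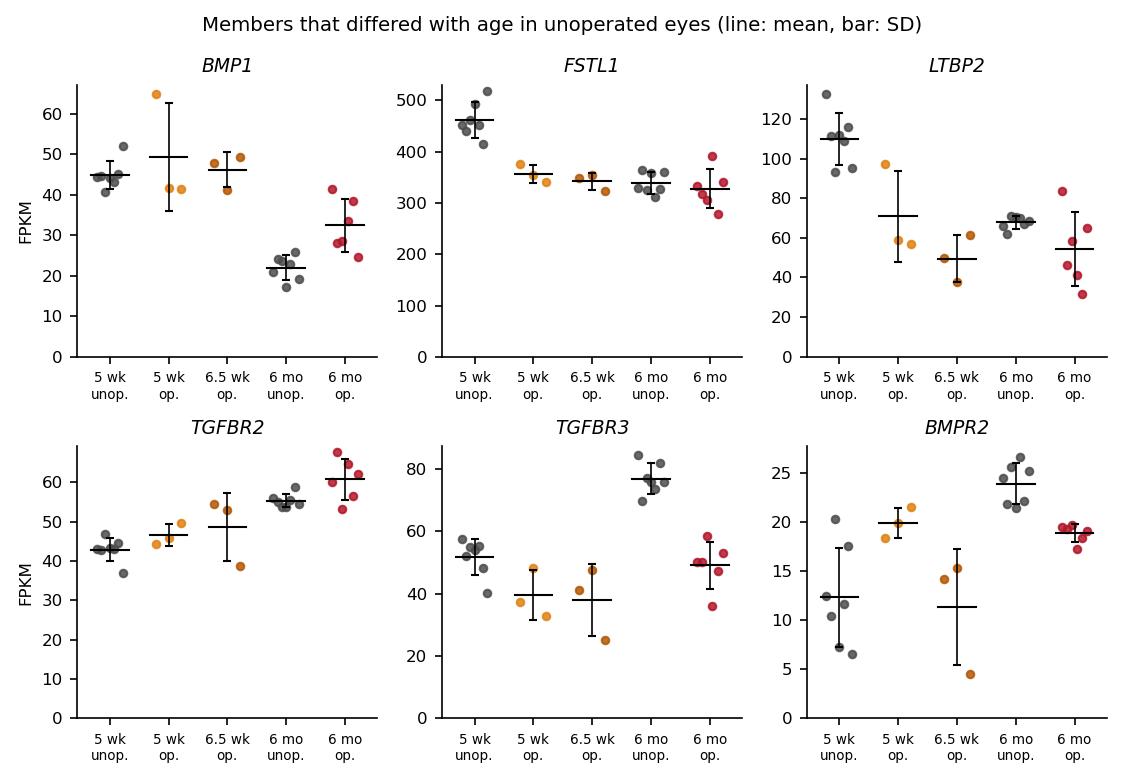
FPKM (y axes, from 0) of 6 members called with age in unoperated eyes, in each library of the 5 groups (x axis), with mean (line) and SD (bar). BMP1, FSTL1 and LTBP2 are lower and TGFBR2, TGFBR3 and BMPR2 higher in all unoperated 6-month than in all unoperated 5-week eyes.

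Other genes of the pathway were taken from lists of activators and matrix partners, intracellular regulators and known targets. Through which groups these genes pass the 1 FPKM limit was not worked out, so some of their calls may follow from the listing. Of 27 measured activators and matrix partners 7 rose and 9 fell at 6 months, and 9 rose and 10 fell in juveniles. That is 59.3% and 70.4% changed, beside 46.1% and 37.3% of all genes. THBS1, which frees TGF-beta from its latent form, went from 2.55 to 6.99 FPKM in unoperated to 22.3 to 50.2 in operated 6-month eyes (log2 3.07 ± 0.24). LRRC32, which anchors latent TGF-beta on the cell surface, rose by 1.14 ± 0.14 and the endothelial co-receptor ENG by 0.86 ± 0.09. Fibrillin-1 (FBN1), to which LTBP1 binds and which was picked here after its values were seen, fell from 75.1 to 124 FPKM to 32.9 to 69.8 (log2 -1.05 ± 0.16), and its relative FBN2 and the proteoglycan FMOD fell by 0.65 ± 0.11 and 0.90 ± 0.15.

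Of 29 intracellular regulators 6 rose and 8 fell at 6 months, and 2 rose and 7 fell in juveniles. The shares changed, 48.3% and 31%, were close to or below those of all genes (46.1% and 37.3%). PMEPA1, a TGF-beta-induced inhibitor of SMAD signalling, rose at both ages (log2 1.42 ± 0.17 and 1.28 ± 0.17). DAB2, an adaptor of TGF-beta receptors, rose by 0.85 ± 0.09 and 0.73 ± 0.09, and the SMAD anchor ZFYVE9 (SARA) fell by 0.50 ± 0.09 at 6 months. Of 24 targets 11 rose and 4 fell at 6 months, and 10 rose and 6 fell in juveniles (62.5% and 66.7% changed). Their median log2 change was 0.20 at both ages, beside -0.11 and -0.06 over all genes. The targets named next are all from those that rose, and whether operated eyes alone listed any of them was not worked out. The transcription factor SNAI1 rose by 2.63 ± 0.26 and 1.72 ± 0.26. TIMP1, an inhibitor of matrix proteases, rose by 2.01 ± 0.11 and 1.42 ± 0.11, and the matrix protein TGFBI by 2.09 ± 0.16 and 2.08 ± 0.16.

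For the 3 members with the largest changes in juveniles, the most similar genes of the whole table over the 26 libraries were as follows. CHRDL2 was nearest to IYD, LOC100009168 and IGFBP4 (Pearson r of log2 values 0.977, 0.959 and 0.958), and among members to TGFB3 (0.945). INHBA was nearest to SUSD6, IER3 and DUSP23 (0.942, 0.940 and 0.937), and TGFB2 to LHX9, KLHL32 and LOC100345607 (0.959, 0.943 and 0.934). The nearest member to TGFB2 was LTBP1 (0.894). All of these correlations contain the difference between operated and unoperated eyes, which the libraries share.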

How the data were processed

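RNA was extracted from iris and ciliary body and sequenced on the DNBseq platform, per the labels. The authors deposited FPKM per transcript and library, per the file headers. The submitters' processing notes list HISAT2 2.0.4, Bowtie2 2.2.5 and RSEM 1.2.12 with no roles. No genome build is stated there or in the labels. Of 49 labelled samples, 26 are analysed and 23 cornea samples are not analysed here. Because FPKM is a relative measure, a few abundant transcripts can lower all others, and no read counts were used. All 16725 listed transcripts exceed 1 FPKM in every library of at least 1 of 4 groups (smallest group minimum 1.01), and 1.133% of values are 0.

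FPKM were summed per symbol, which merged transcripts for 7 members. Group means were fitted with limma 3.58.1 (R 4.3.3) to log2(FPKM + 0.5) of all 26 libraries with trend and robust moderation, adjusting over 12948 genes. A filter at 1 FPKM in 3 libraries removed 0 genes. The fit was tested on simulated data. The 5 comparisons were surgery at 6 months, surgery in juveniles, age in unoperated eyes, the difference of the surgery effects, and operated 6.5 against 5 weeks. Members, gene lists and alternatives were chosen with earlier results of these data known. Every member may be named, and values by library are given for those called with a log2 change of at least 0.8. From each related list up to 6 genes with the smallest p in a surgery comparison may be named, and 3 nearest genes for each of 3 members. RefSeq symbols of assembly mOryCun1.1 were used for names only, and 52 of 52 members matched. No sequences are printed. Values of 1 member and of 1 gene of the target list are not reported here; both stay in the counts.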

Additional observations from a re-analysis of the deposited data

Results flagged for a closer look

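In 4 of 117 groups of 6 or 7 libraries tested (39 members), 1 library lay far from the others of its group by Dixon's test on the log2 scale, and chance gives about 1 in 20. BMP1 was 52.07 FPKM in unoperated 5-week replicate 7, beside 40.59 to 45.09 in the others. TGFBR2 was 37.05 FPKM in the same library, beside 42.76 to 46.84. FST was 5.57 FPKM in unoperated 5-week replicate 6, beside 2.56 to 3.49. SMAD7 was 6.57 FPKM in operated 6-month replicate 5, beside 8.23 to 9.24.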

How the results depend on the processing

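No paired analysis was possible among the 26 libraries because each came from a different rabbit. Rabbit numbers shared in the labels join an iris and ciliary body sample to a cornea sample. Over 90 results for single members, leaving out 1 library ended calls in 10 results and other settings in 27. The 90 include results not called in the main fit. Only the 28 calls for surgery at each age and the 15 with age could end. The one change of direction was FSTL1 at 6 months with median-ratio scaling (0.0457). Without the libraries over 1000 FPKM of CRYAA, 7 members were higher and 12 lower with surgery in juveniles, beside 1283 and 1361 of 12948 genes. Age changed 5 members, 2 higher and 3 lower, beside 279 and 320 of all genes. Fewer libraries entered that fit. Equal-sum scaling also gave 7 higher in juveniles. For the difference of the surgery effects 1 member changed, in the higher direction, with the 6.5-week eyes alone. Leaving out 1 library gave 0 to 1 changed and 0 to 1 higher there, and 0 to 1 changed and 0 to 1 lower for operated 6.5 against 5 weeks. The same fits gave 26 to 30 members changed at 6 months, 25 to 31 in juveniles and 12 to 15 with age. Read depth is unknown, so the precision of low values such as those of CHRDL2, GDF10 and NOG cannot be judged from counts.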

Other observations

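Transcripts of LTBP1 did not all follow the gene's sum. The transcript XM_008254561.2 averaged 1.92 FPKM in unoperated 5-week, 1.28 in operated 5-week and 0.01 in operated 6.5-week eyes, and 11.4 in unoperated and 9.31 in operated 6-month eyes. The most abundant transcript, XM_017340825.1, averaged 108, 67.5, 54.6, 89.3 and 52.5 FPKM in the same order. BMP8B, listed under the locus number LOC100341360 and so outside the symbol rule, rose with surgery by log2 0.44 ± 0.11 at 6 months (limma adjusted p = 0.00219). In juveniles its log2 difference was 0.71, given with no test because it is listed only through the operated juveniles. Its lowest value was 1.28 FPKM there, and its highest was 0.99 in unoperated 5-week eyes. The 52 members together made up 0.487 to 0.567% of the summed FPKM in unoperated and 0.378 to 0.5004% in operated 6-month libraries, and 0.524 to 0.633% against 0.417 to 0.491% in juveniles, both operated ages included.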
